A study of Mus musculus with 2 samples.

Results

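The insulin-like growth factor (IGF) genes described here are 9 members: the ligand Igf1, the receptor Igf1r, the binding proteins Igfbp2, Igfbp3, Igfbp4, Igfbp5, Igfbp6 and Igfbp7, and the binding protein-like gene Igfbpl1. They were taken by name out of 25814 genes with a count in at least 1 library, and all 9 had counts in both libraries. Nes-GFP+ cells, which carry GFP under Nestin regulatory elements, had been sorted from brain and lung of adult mice of about 6 weeks, untreated as far as the labels say. The labels give the strain as C57BL/6, whereas the methods of the study describe stocks with CD1 and C3H background. Each tissue gave 1 droplet library with 3' counting of unique molecular identifiers (UMIs), so no difference has a replicate check and no p-value is given. The reporter sorted many cell types in lung that are not neural, and the sort sets which cells, and how many of each, could be compared.

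After the filter on genes and mitochondrial counts, 4151 brain cells held 19518081 UMIs (median 4209 per cell) and 5608 lung cells held 31797069 (median 5585). The libraries shared 15 barcodes, 11 of them among the kept cells. Cells were clustered within each library without the IGF genes, and clusters were named from marker lists, with "-like" after each name. This gave 11 named brain classes and 8 named lung classes; 140 brain and 890 lung cells stayed without a name. Names follow the study: quiescent and active neural stem cells (qNSCs, aNSCs), neuroblasts (NBs), oligodendrocyte progenitors (OPCs) and mature oligodendrocytes (mOLs). The brain cluster led by Neurod1, Eomes and Tbr1 met the thresholds for a neuron marker list (score 1.48, NB next with 0.374). It was renamed Eomes-led because Eomes was among its leading genes. In 17 of the 18 classes named after a marker list, no marker with counts in the library was at 0 in its class. Of the 8 OPC markers, 7 had counts in brain. In the epithelial-like class, whose leading genes include Krt5, Krt14 and Ccl21a, 4 of 8 epithelial markers were at 0. The lymphocyte-like class also carried macrophage markers (3141 CPM summed over the list, where CPM scales the UMIs of a gene to the total of the class).

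IGF-1 and IGF-2 act through the IGF-1 receptor, a tyrosine kinase related to the insulin receptor, to promote growth and survival of cells. Binding proteins 1 to 6 hold the ligands with high affinity in blood and in the matrix, and so limit or carry them, and proteases of the pappalysin family release the ligand. IGFBP7 binds the ligands weakly and is a secreted matrix protein known from blood vessels. Igfbpl1 encodes a related secreted protein known from developing neurons.

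The genes lie apart from each other in the genome except for Igfbp2 and Igfbp5, so their positions and start regions are shown first. In GENCODE M21 on build GRCm38 (the mm10 build of the files), Igfbp2 spans chr1:72824503-72852474 on the + strand and Igfbp5 spans chr1:72857932-72874884 on the - strand. Their 3' ends face each other across 5458 bases. Igfbp4 (chr11:99041244-99054392, +) and Igfbp3 (chr11:7206086-7213923, -) share a chromosome, and Igfbp3 has Igfbp1 3540 bases away. Igfbp7 spans chr5:77349240-77408041 on the - strand and its 5' end overlaps the start of Polr2b on the other strand. Igf1 (chr10:87858265-87937042, +), Igf1r (chr7:67952827-68233668, +), Igfbp6 (chr15:102144362-102149511, +) and Igfbpl1 (chr4:45809468-45826923, -) complete the list. An antisense gene, Igf1os, lies within Igf1, and whether the counting used strand is not given in the sources used here. Igf1os is not a gene of the tables used here. Over all deposited barcodes, Polr2b had 1874 UMIs in brain against 6494 of Igfbp7, and 1466 in lung against 42845.

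The 250 bases before the RefSeq start (GRCm38.p6) are printed for Igfbp2 and Igfbp5, which differed between qNSC-like clusters, and for Igfbp4 and Igfbp7, which differed between the tissues. Capitals mark matches on either strand. The TATA box was searched as TATAAA. The GC box was searched with the letters GGGCGG. The third motif searched was CCAAT, and none of these matches overlap. The windows are, in order, chr1:72824230-72824479 (+), chr1:72874866-72875115 (-), chr11:99040994-99041243 (+) and chr5:77408046-77408295 (-).
Igfbp2: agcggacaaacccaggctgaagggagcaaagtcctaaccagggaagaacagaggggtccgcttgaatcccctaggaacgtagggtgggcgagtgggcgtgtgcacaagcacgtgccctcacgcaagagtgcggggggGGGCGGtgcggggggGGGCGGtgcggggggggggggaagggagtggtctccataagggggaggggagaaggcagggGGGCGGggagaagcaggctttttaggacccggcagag
Igfbp5: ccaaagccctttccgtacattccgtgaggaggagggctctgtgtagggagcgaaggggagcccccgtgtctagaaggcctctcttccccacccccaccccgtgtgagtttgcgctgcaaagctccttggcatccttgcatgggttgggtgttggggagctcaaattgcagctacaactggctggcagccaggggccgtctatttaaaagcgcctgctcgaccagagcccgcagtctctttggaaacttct
Igfbp4: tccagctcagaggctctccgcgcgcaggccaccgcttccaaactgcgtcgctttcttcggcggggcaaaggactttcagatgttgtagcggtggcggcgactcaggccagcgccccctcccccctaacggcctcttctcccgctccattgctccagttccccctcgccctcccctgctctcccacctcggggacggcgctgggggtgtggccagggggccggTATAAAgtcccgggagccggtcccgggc
Igfbp7: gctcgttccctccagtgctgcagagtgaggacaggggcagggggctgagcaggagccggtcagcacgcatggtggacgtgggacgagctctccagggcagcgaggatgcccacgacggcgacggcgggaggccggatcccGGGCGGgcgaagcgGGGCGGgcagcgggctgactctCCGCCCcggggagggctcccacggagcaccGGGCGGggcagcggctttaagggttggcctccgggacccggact
Igfbp2 held 3 GC boxes and Igfbp7 held 4, whereas Igfbp4 held 1 TATA box that begins 28 bases before the start and Igfbp5 held none of the motifs. Among 32851 such windows, 12.4% held the TATA box, 32.7% the GC box and 33.8% the CCAAT motif. The content of guanine and cytosine was 67.2% of the window of Igfbp2, 58.8% of Igfbp5, 69.2% of Igfbp4 and 74% of Igfbp7, against a median of 52.4% over all windows. These matches describe the letters only.

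Levels are CPM of the UMIs summed over all cells of a class, with an exact Poisson 95% interval in parentheses; intervals cover counting error only, and cells of a class share 1 library. UMI counts do not allow levels of different genes to be compared without regard to capture, so levels are compared only within a gene. Fewer UMIs per cell and fewer cells that make the RNA cannot be told apart from these sums, so shares of cells with a UMI are given as well, also after each cell was thinned to 1000 UMIs. Free RNA in the droplets was not estimated, so a low level or share is not read as expression by the class.

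**Figure D1:**
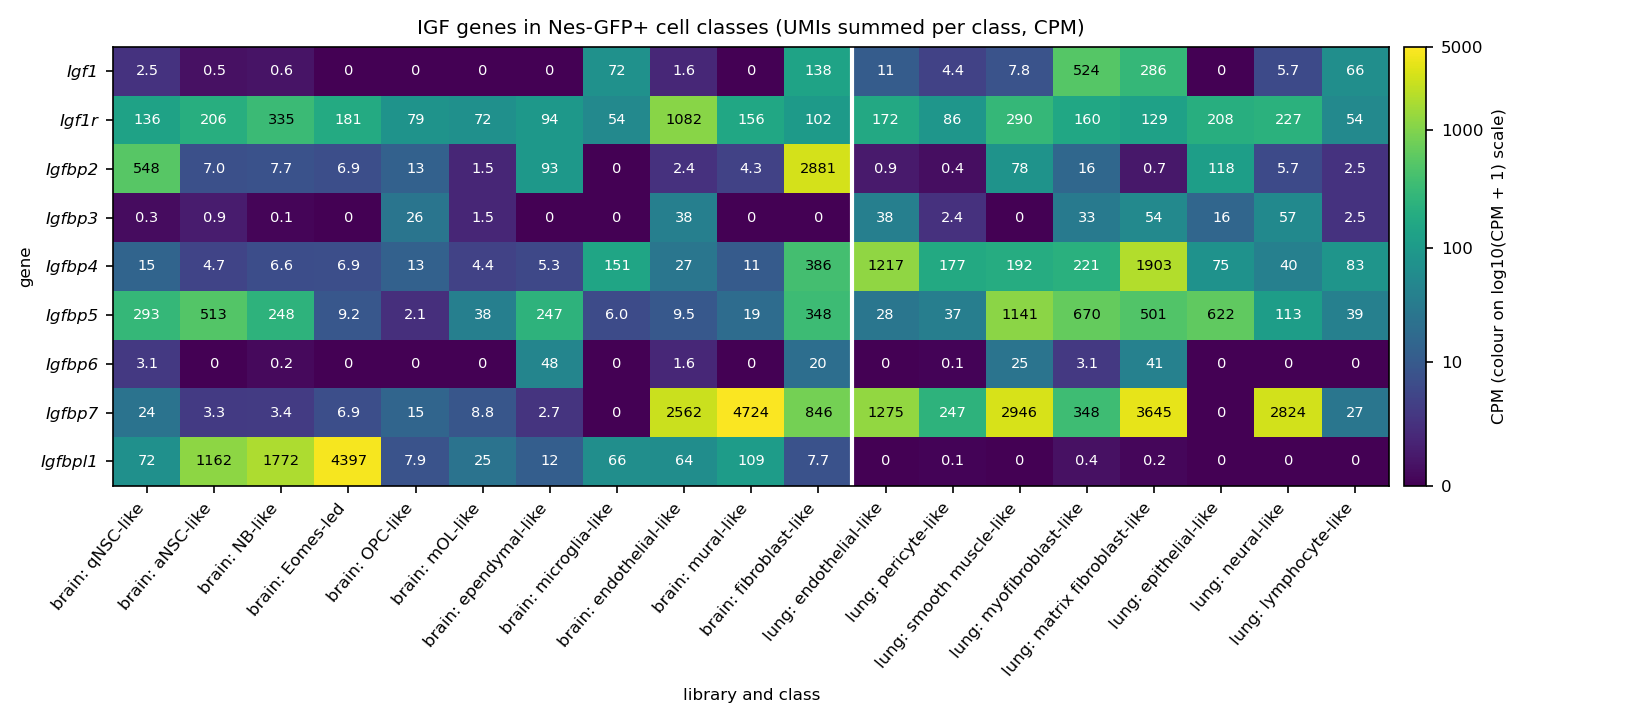
Level of each IGF gene (rows) in the 11 named brain and 8 named lung classes (columns), as CPM of summed UMIs, printed in each cell and coloured on a log10(CPM + 1) scale. Igfbp7 is highest in brain mural-like (4724 CPM) and lung matrix fibroblast-like cells (3645 CPM) and lower in lung pericyte-like cells (247 CPM), Igfbpl1 is high in Eomes-led, NB-like and aNSC-like cells (1162 to 4397 CPM) and Igf1 in lung myofibroblast-like (524 CPM) and matrix fibroblast-like cells (286 CPM).

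Igf1, the ligand, was highest in lung myofibroblast-like cells, and under the marker gate on each cell in lung smooth muscle-like cells. Its level was 524 CPM (507-542) in lung myofibroblast-like cells and 286 CPM (272-300) in matrix fibroblast-like cells, and these classes held 66.3% and 29.98% of all Igf1 UMIs in named classes. A UMI of Igf1 was found in 75.5% of myofibroblast-like cells (33.5% after thinning) and in 55.8% of matrix fibroblast-like cells (20.03% after thinning). In brain, Igf1 was read at 138 CPM (104-180) in fibroblast-like cells and at 72.2 CPM (37.3-126) in microglia-like cells, a class of 34 cells. Only 18.2% of the brain fibroblast-like cells had a UMI of Igf1, and 10 cells held 96.3% of the 54 UMIs. The levels in microglia-like and lung lymphocyte-like cells (66.2 CPM, 43.6-96.2) overlapped. In 6 classes no Igf1 UMI was found, among them brain mural-like cells, where 3 UMIs would have been 6.42 CPM.

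Within the lung myofibroblast-like class, Igf1 was 2.59-fold (2.41-2.79) higher in the cluster led by Aspn and Scgb1a1 (760 CPM) than in the cluster led by Nrcam and Htra1 (294 CPM). Igfbp4 followed the same direction with 3.08-fold (2.74-3.47), and so did Igfbp5 with 2.07-fold (1.95-2.21) and Igf1r with 1.81-fold (1.6-2.06). Igfbp7 differed by less than the counting error, with 336 and 360 CPM (ratio 0.933, 0.860-1.01). Igf1 and Igfbp5 were found together in 581 of 1006 myofibroblast-like cells (57.8%). Igf1 was found in 75.5% and Igfbp5 in 73.6% of these cells, and no link between the genes was tested. The first cluster carries Scgb1a1 and Scgb3a2, transcripts of airway secretory cells, among its leading genes, and their part in these values was not tested.

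Igf1r, the receptor, had its highest level in brain endothelial-like cells. Its level there was 1082 CPM (1025-1141), 3.23-fold (3.02-3.44) above the next class, NB-like cells with 335 CPM (323-348), and 90.6% of the endothelial-like cells had a UMI (61.9% after thinning). Below these, lung smooth muscle-like cells (290 CPM), neural-like cells (227 CPM), epithelial-like cells (208 CPM) and brain aNSC-like cells (206 CPM) followed, and from NB-like cells down to the last class the interval of the ratio of neighbours included 1. The lowest levels were 54.2 CPM in microglia-like cells and 53.9 CPM in lymphocyte-like cells, from 9 and 22 UMIs, below the 288 and 134 CPM over all cells of their libraries, and they are not told apart from free RNA. The brain cluster without a name, whose cells had a median of 866 UMIs, gave 805 CPM of Igf1r and 860 CPM of Igfbpl1, with 10131 CPM over the NB marker list. In the oligodendrocyte lineage, Igf1r was 3.22-fold (2.15-4.87) higher in the OPC-like cluster led by Pdgfra (143 CPM) than in the one led by Enpp6 and Gpr17 (44.4 CPM).

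Igfbp2, a binding protein of astroglia and meninges, had 2 main sites, both in brain. Its level was 2881 CPM (2715-3054) in fibroblast-like cells, where 98.5% of cells had a UMI, and 548 CPM (523-574) in qNSC-like cells, where 39.3% had one. Of the 1755 qNSC-like UMIs, 1666 came from the cluster led by Htra1 and Cxcl14, which carried astrocyte markers. The fibroblast-like and qNSC-like classes held 34.6% and 53.8% of all Igfbp2 UMIs in named classes. In lung, Igfbp2 was read at 118 CPM (83.6-162) in the 35 epithelial-like cells and 78.4 CPM (56.0-107) in smooth muscle-like cells, and these overlapped with ependymal-like cells of the brain (92.8 CPM). It was below 1 CPM in lung endothelial-like, matrix fibroblast-like and pericyte-like cells.

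Igfbp5, a matrix-bound binding protein, was spread over lung and brain classes. The highest level was 1141 CPM (1050-1237) in lung smooth muscle-like cells, followed by 670 CPM (650-690) in myofibroblast-like cells and 622 CPM (539-714) in epithelial-like cells, the last pair overlapping. Under the marker gate on each cell and at resolution 0.4, the myofibroblast-like class was the top one. Brain aNSC-like cells (513 CPM, 483-545) and lung matrix fibroblast-like cells (501 CPM, 483-520) did not differ beyond counting error. In smooth muscle-like cells 62.4% had a UMI and 10 cells held 55.7% of them. Brain fibroblast-like cells gave 348 CPM, but 10 of 66 cells held 94.9% of these UMIs. Endothelial-like cells of brain (9.52 CPM), mural-like cells (19.3 CPM), OPC-like cells (2.15 CPM), mOL-like cells (38.2 CPM) and lung pericyte-like cells (37.4 CPM) were low.

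Igfbp4 was highest in lung matrix fibroblast-like cells, with 1903 CPM (1867-1940), and in lung endothelial-like cells, with 1217 CPM (1181-1254). A UMI was found in 94.7% and 89.4% of their cells. Brain fibroblast-like cells followed with 386 CPM (327-453), and lung myofibroblast-like (221 CPM), smooth muscle-like (192 CPM) and pericyte-like cells (177 CPM) came next with neighbouring levels that overlapped. In brain, microglia-like cells gave 151 CPM (97.4-222) and all other classes except fibroblast-like cells were at 27.0 CPM or less.

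Igfbp3, the main carrier of IGFs in blood, and Igfbp6, which prefers IGF-2, rested on few UMIs in their highest classes. Igfbp3 was read at 56.7 CPM (27.2-104) in lung neural-like cells from 10 UMIs, at 54.0 CPM (48.1-60.4) in matrix fibroblast-like cells from 304 UMIs, and at 38.1 CPM in endothelial-like cells of lung and of brain. Of the 134 UMIs of lung endothelial-like cells, 119 came from 1 cluster of 75 cells. The lung cells without a name gave 95.2 CPM (85.2-106) from 331 UMIs, above every named class. The first levels overlap, and the matrix fibroblast-like class was the top one with doublets removed, with all deposited barcodes, under a marker gate on each cell and with other size factors. In brain, OPC-like cells gave 26.5 CPM of Igfbp3 (18.6-36.5), all 37 UMIs from the cluster led by Pdgfra (74.4 CPM) and none from the cluster led by Enpp6, a ratio of at least 22.4-fold. Igfbp6 reached 47.7 CPM (33.4-66.1) in brain ependymal-like cells from 36 UMIs, 16 of them in 1 cell, and 40.8 CPM (35.7-46.5) in lung matrix fibroblast-like cells from 230 UMIs. With all deposited barcodes brain fibroblast-like cells were the top class of Igfbp6, and with TMM factors lung matrix fibroblast-like cells were. All 13 Igfbp6 UMIs of smooth muscle-like cells came from 1 cell, and 10 of the 19 classes had none.

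Igfbp7 was high in some vessel and mesenchymal classes of both tissues and in lung neural-like cells. Its level was 4724 CPM (4529-4925) in brain mural-like cells, 3645 CPM (3595-3695) in lung matrix fibroblast-like cells, 2946 CPM (2799-3099) in smooth muscle-like cells, 2824 CPM (2581-3083) in lung neural-like cells and 2562 CPM (2475-2652) in brain endothelial-like cells. In brain mural-like cells 96.4% of cells had a UMI. Lung endothelial-like cells gave 1275 CPM (1237-1312), whereas myofibroblast-like cells, with 348 CPM, and pericyte-like cells, with 247 CPM (237-256), were below the 1180 CPM over all lung cells. Brain neural classes were at 24.4 CPM or less, and none was found in the microglia-like and epithelial-like cells. With size factors of edgeR or DESeq2 in place of total UMIs, the matrix fibroblast-like class ranked above the mural-like class. Among the clusters without a name, the lung cluster led by Ptn, C3 and Apod (98 cells) gave 4888 CPM of Igfbp7, 929 CPM of Igfbp4 and 383 CPM of Igfbp3.

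Igfbpl1 was highest in Eomes-led, NB-like and aNSC-like cells of the brain. Its level was 4397 CPM (4202-4598) in the 70 Eomes-led cells, all of which had a UMI, then 1772 CPM (1743-1800) in NB-like cells and 1162 CPM (1117-1209) in aNSC-like cells. The aNSC-like class carried 4889 CPM over the NB marker list against 1168 CPM over its own, and 203 of its 222 cells with an Igfbpl1 UMI had UMIs of at least 3 of the 9 NB markers, against 8 of the 60 without (91.4% and 13.3%). The part of these in its Igfbpl1 level was not tested. The marker gate on each cell has no Eomes-led class, so the top level could not be compared under it. NB-like cells held 75.7% of its UMIs in named classes. In all named lung classes together 5 UMIs were found: 3 in myofibroblast-like cells and 1 each in matrix fibroblast-like and pericyte-like cells. Lower levels stood in brain mural-like (109 CPM), qNSC-like (71.5 CPM), microglia-like (66.2 CPM) and endothelial-like cells (64.2 CPM), from few cells. Of the 17 endothelial-like cells with an Igfbpl1 UMI, 11 also had UMIs of at least 3 of the 9 NB markers, against 1 of the 312 without (64.7% and 0.321%). In mural-like cells these numbers were 6 of 12 and 0 of 157, and in qNSC-like cells 25 of 56 and 5 of 777.

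In the brain, aNSC-like cells were set against qNSC-like cells. The qNSC-like class was named from glial markers that astrocytes share, and 414 of its 833 cells lay in a cluster with 4273 CPM over an astrocyte list and 403 CPM over a neurogenic qNSC list, so quiescent stem cells and astrocytes are not told apart in the class. The binding protein Igfbp2 was 78.1-fold (47.3-140) lower in aNSC-like cells (7.01 CPM) than in qNSC-like cells (548 CPM). Since nearly all of the qNSC-like UMIs came from that cluster, the ratio moved from 0.0128 to 0.102 when the cluster led by Thbs4 alone was used. Igfbpl1 was 16.3-fold (14.2-18.7) higher, with 1162 against 71.5 CPM. Igfbp7 was 7.44-fold (3.45-19.1) lower and Igfbp4 3.14-fold (1.57-6.97) lower, both from low levels, and against the astrocyte-marked cluster alone their ratios were 1.04 and 2.22. Igfbp5 (1.753-fold, 1.605-1.914) and Igf1r (1.52-fold, 1.33-1.74) were higher by less than 2-fold; 4 alternatives for cells, clusters and scaling put Igfbp5 past it (2.005 to 2.49). Of the 6 members with at least 10 CPM in 1 of these classes, 4 differed at least 2-fold, against 48.7% of all genes tested. No cluster was named aNSC-like at resolution 0.4 or with all variable genes, and the class of 282 cells had 110 at resolution 1.2 and with all deposited barcodes and 33 under the marker gate. Under the alternatives that kept an aNSC-like class, the ratio of Igfbpl1 ranged from 3.33 (marker gate on each cell) to 34.0, with 4.34 for all deposited barcodes, and under the gate the ratio of Igfbp7 was 0.791. With the mean of the cells' own CPM, that of Igfbp4 was 0.603. The median log2 ratio of the members was -0.52 against 0.21 over all genes.

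The qNSC-like class held clusters with opposite binding proteins. The cluster led by Htra1, Cxcl14 and Slc7a10 (414 cells; astrocyte marker list 4273 CPM, neurogenic qNSC marker list 403 CPM) gave 876 CPM of Igfbp2 (834-919) and 38.4 CPM of Igfbp5 (30.1-48.3). The cluster led by Thbs4 and Gfap (276 cells; neurogenic qNSC marker list 1404 CPM, astrocyte marker list 1581 CPM) gave 68.5 CPM of Igfbp2 (53.8-86.1) and 779 CPM of Igfbp5 (727-833). Igfbp5 was thus 20.3-fold (15.96-26.1) higher and Igfbp2 12.8-fold (10.1-16.4) lower in the Thbs4 cluster. These are the neighbouring genes of chromosome 1 whose start regions are printed above. After thinning, 40.0% of the cells of the first cluster had an Igfbp2 UMI and 3.90% an Igfbp5 UMI, and in the second 5.11% and 28.5%. Both genes were found in 42 of the 833 qNSC-like cells, Igfbp2 alone in 285 and Igfbp5 alone in 164. These counts pool the clusters. In the first cluster 35 of 414 cells had both, 248 Igfbp2 alone and 22 Igfbp5 alone. In the second 7 of 276 cells had both, 26 Igfbp2 alone and 129 Igfbp5 alone. Whether single cells avoid having both was not tested.

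Igfbp7 and Igfbp4 of the qNSC-like class came mostly from the Thbs4 cluster. Igfbp7 was 20.9-fold (9.12-58.7) higher there (65.8 against 3.16 CPM) and Igfbp4 18.9-fold (6.88-72.6) higher (39.8 against 2.10 CPM), but 10 cells held 90.1% and 90.7% of these UMIs in that cluster. Against the Thbs4 cluster alone, aNSC-like cells were lower in Igfbp5 (ratio 0.659), and against the Cxcl14 cluster alone they were higher (ratio 13.4). The ratio of Igfbp2 was 0.102 and 0.00801 in the same order, so Igfbp2 was lower against either. The ratio of Igfbpl1 was 7.84 and 34.0. These splits were added after the levels were seen.

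From aNSC-like to NB-like cells, a comparison that also needs the aNSC-like class, the differences were smaller, with 1 of 3 members tested past 2-fold against 15.0% of all genes. Igfbp5 was 2.07-fold (1.92-2.23) lower in NB-like cells (248 against 513 CPM). Without the cycling NB-like clusters its ratio was 0.507, with TMM factors 0.563 and with median-of-ratios factors 0.5001, which no longer pass. Igf1r was 1.63-fold (1.47-1.80) higher and Igfbpl1 1.52-fold (1.46-1.59) higher. At resolution 1.2 their ratios were 2.02 and 5.63, and with all deposited barcodes 2.17 and 5.51, past the fold, and under the marker gate that of Igfbpl1 was 7.36. Within the NB-like class, the cycling clusters gave 203 and 209 CPM of Igf1r, and the noncycling clusters, led by Stmn2 and by Meg3 and Pbx3, gave 370 and 421 CPM. Igfbp5 was 3.40-fold (3.00-3.87) higher in the Stmn2 cluster (386 CPM) than in the Meg3 cluster (113 CPM). The Eomes-led cells differed from NB-like cells in the same sorted brain by 2.48-fold (2.37-2.60) more Igfbpl1, and they had 9.16 CPM of Igfbp5.

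**Figure D2:**
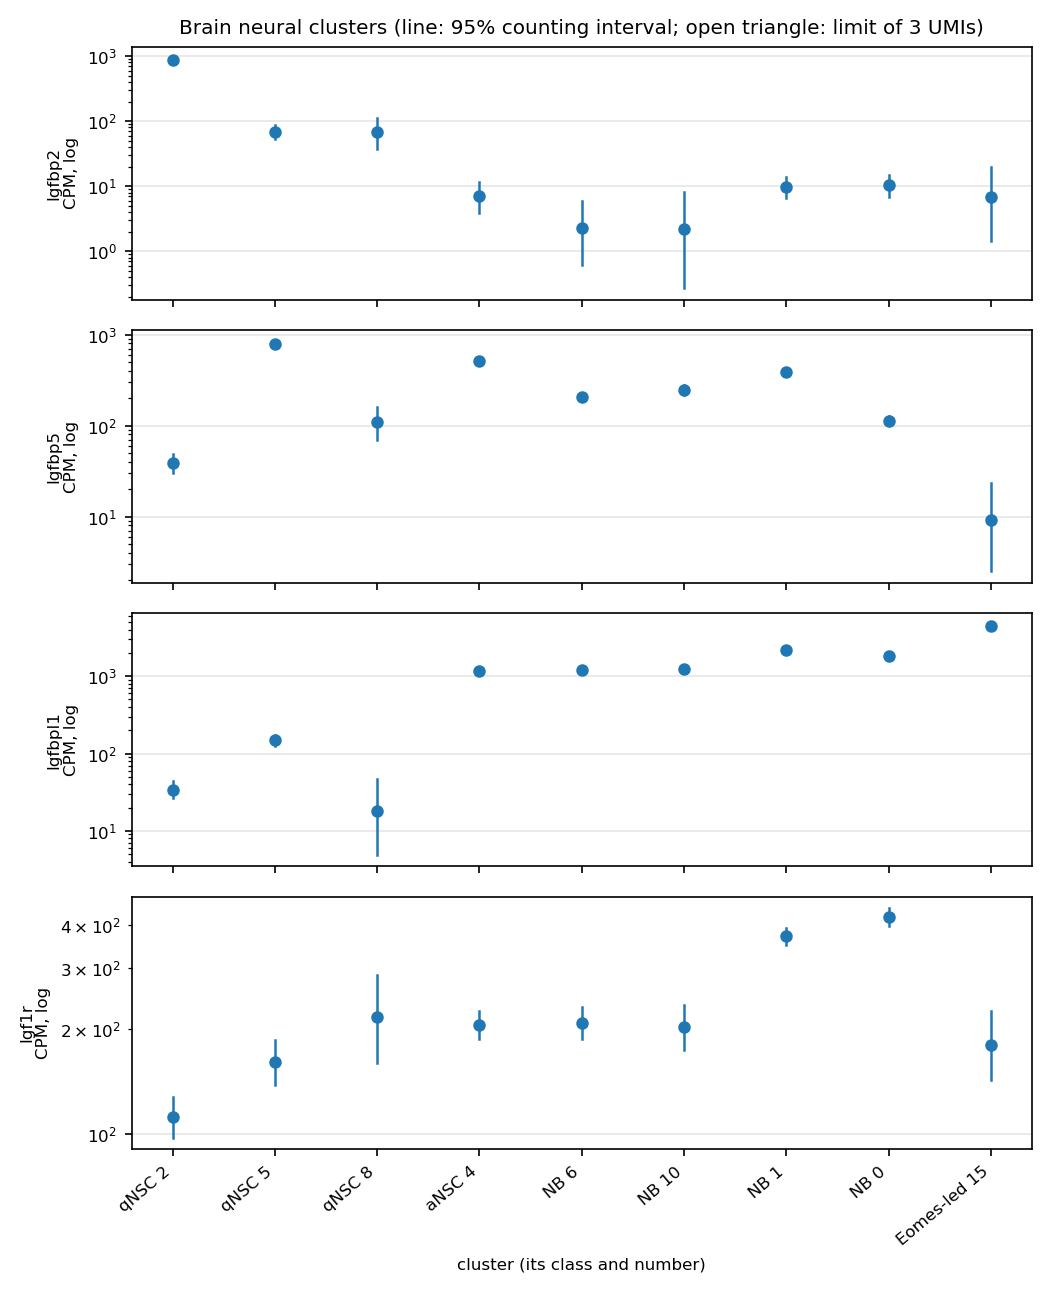
Level in CPM (log axes) of Igfbp2, Igfbp5, Igfbpl1 and Igf1r in the qNSC-like, aNSC-like, NB-like and Eomes-led brain clusters, with 95% counting intervals; qNSC 2 is the astrocyte-marked cluster led by Cxcl14, qNSC 5 the cluster led by Thbs4, qNSC 8 a shallow cluster, NB 6 and NB 10 the cycling clusters. Igfbp2 is highest in qNSC 2 (876 CPM), Igfbp5 in qNSC 5 (779 CPM) and Igfbpl1 in the Eomes-led cluster (4397 CPM).

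Endothelial-like cells were compared between the tissues because both sorts held them. Igfbp4 was 45.1-fold (32.3-65.3) higher in lung, with 1217 CPM against 27.0 CPM in brain. Igf1r was 6.28-fold (5.70-6.92) lower in lung, with 172 against 1082 CPM. Igfbp7 was 2.01-fold (1.92-2.10) lower in lung (1275 against 2562 CPM), Igfbp5 was 2.90-fold (1.59-5.81) higher from low levels, and Igf1 was 6.82-fold (1.76-58.4) higher from 38 and 2 UMIs. Igfbp7 fell short of 2-fold with all deposited barcodes (ratio 0.531), under the marker gate (0.509) and with TMM factors (0.512), and the ratio of Igf1 ranged from 3.83 to 14.8. Igfbpl1 was at least 75.2-fold lower in lung, where it had no UMI, and 91.4% of the brain UMIs came from 10 cells, in the class where 11 of 17 cells with the gene also had NB markers; the part of doublets in it was not tested beyond removing called ones, which gave a ratio of at most 0.0602, and under the marker gate it was 0.174. With these doublets removed, the ratio of Igfbp5 was 1.91, under the fold. Of 7 members tested, 6 passed 2-fold, against 24.7% of all genes, and 4 passed with doublets removed and under the marker gate.

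Lung endothelial-like clusters were unequal in 5 members. Igfbp3 was read at 301 CPM in the cluster led by Fabp4, Rbp7 and Cd300lg and at 3.60 CPM in the cluster led by Hpgd and Gpihbp1, an 83.4-fold (37.2-232) difference. Without the Cd300lg cluster of 75 cells, the lung over brain ratio of Igfbp3 was 0.126 in place of 1.002 (also 0.126 with over 500 genes and under 20% mitochondrial counts), and that of Igfbp7 was 0.352 in place of 0.497. Igfbp7 was 3.33-fold (3.12-3.56) higher in the Cd300lg cluster (4208 CPM) than in the Hpgd cluster (1263 CPM), and lowest in the cluster led by Vwf and Gja5 (488 CPM). Igfbp4 had the opposite order at its top: 1890 CPM in the Vwf cluster, 787 in the Hpgd cluster and 558 in the Cd300lg cluster. Igf1 was 11.4-fold (4.59-32.1) higher in the Cd300lg than in the Hpgd cluster (48.0 against 4.20 CPM, from 19 and 7 UMIs), and Igfbp5 was 2.57-fold (1.64-4.13) lower in the Hpgd than in the Vwf cluster (17.4 against 44.8 CPM). Igf1r was at 162 to 186 CPM in the 3 clusters, and the ratio of the Cd300lg to the Hpgd cluster was 0.993 (0.744-1.31). Igfbp4 and Igfbp7 were found together in 432 of 616 lung endothelial-like cells (70.1%). Igfbp4 was found in 89.4% and Igfbp7 in 75.2% of these cells, and no link between the genes was tested.

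Lung pericyte-like cells were set against brain mural-like cells, both perivascular. Brain mural-like cells also carried 8904 CPM over the qNSC list, with none of its 10 markers at 0, and 1311 CPM over the astrocyte list, beside 37990 CPM over their own, and the part of these in the values was not tested. Igfbp7 was 19.1-fold (18.1-20.3) lower in lung, with 247 against 4724 CPM, and Igfbp4 was 16.6-fold (7.09-51.1) higher, with 177 against 10.7 CPM. Igf1r differed by less than 2-fold (ratio 0.551, 0.434-0.709). Igfbpl1 gave 1 UMI in lung and 51 in brain, a ratio of 0.000835 (2.07e-05-0.00487), and 18 of these 51 came from 1 cell; with doublets removed the ratio was 0.0064. With doublets removed and under the marker gate, the ratio of Igfbp4 was 37.2 and 38.6. Of 5 members tested, 3 passed 2-fold, against 33.7% of all genes.

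The low Igfbp7 of lung pericyte-like cells did not hold for all of their clusters. The cluster led by Rgs5, Steap4 and Kcnj8 (113 cells) gave 2980 CPM of Igfbp7 and 619 CPM of Igfbp5, and the largest pericyte-like cluster gave 90.3 and 5.29 CPM. The ratios were 33.0 (29.7-36.7) for Igfbp7 and 117 (78.5-182) for Igfbp5. Igf1 was also higher in the Steap4 cluster (41.0 against 1.42 CPM), whereas Igfbp4 was not (205 against 195 CPM, ratio 1.05, 0.856-1.28). Without this cluster, the ratio of lung pericyte-like to brain mural-like cells became 0.0225 for Igfbp7 and 0.388 for Igfbp5, which had been 1.94. The ratio of Igfbp5 also passed 2-fold upward under 5 alternatives (2.28 to 3.24) and downward with all variable genes (0.290), where that of Igfbp7 was 0.0206. The Steap4 cluster had a pericyte marker score of 2.17 and a smooth muscle score of 1.63.

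Lung matrix fibroblast-like cells were set against the 66 fibroblast-like cells of brain, led by Dcn, Ptgds and Col1a1. The brain class also carried 7889 CPM over the qNSC marker list and 6416 CPM over the mural list, against 15246 CPM over its own, and their part in the values was not tested. Igfbp2 was 4056-fold (ratio 0.000247, 6.7e-05-0.000633) lower in lung, with 4 UMIs against 1127 in brain. Igfbp4 was 4.93-fold (4.20-5.83) higher, Igfbp7 4.31-fold (3.86-4.82) higher and Igf1 2.07-fold (1.58-2.77) higher in lung. Igfbp3 was at least 7.04-fold higher, with 304 UMIs in lung and none in brain. Of 8 members tested, 5 passed 2-fold, against 36.1% of all genes. In the brain class, 10 cells held 97.9% of the Igfbp7 UMIs, 71.5% of the Igfbp4 UMIs and 48.9% of the Igfbp2 UMIs, and 98.5% of these cells had a UMI of Igfbp2. With all deposited barcodes, the ratios of Igf1, Igfbp4 and Igfbp7 were 1.29, 2.94 and 2.29, and with doublets removed that of Igf1 was 1.93, so Igf1 was under the fold in both. The highest ratios over all alternatives were 3.05 for Igf1, 0.000437 for Igfbp2, 12.3 for Igfbp3, 6.20 for Igfbp4 and 7.3 for Igfbp7. Igfbp6, with a ratio of 1.997, was past it under 6 alternatives (2.003 to 2.89), and with all deposited barcodes it turned to 0.722.

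**Figure D3:**
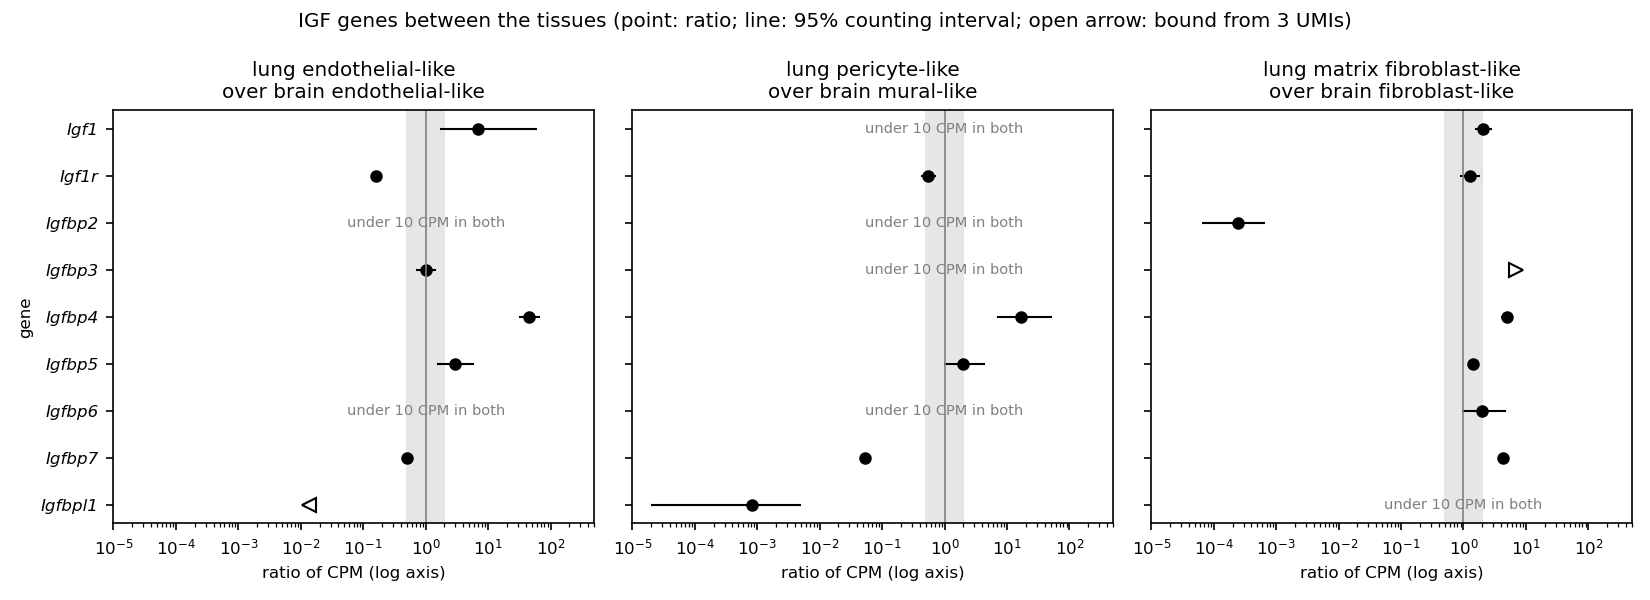
Ratio of the level in lung to that in brain (log axis) for each IGF gene in endothelial-like, perivascular and fibroblast-like cells, with 95% counting intervals; the grey band marks less than 2-fold, and open arrows mark a bound where 1 side had no UMI. Igfbp4 lies above the band in all 3 comparisons (45.1, 16.6 and 4.93), and Igfbp7 below it in the first 2 (0.497 and 0.0522) and above it in the third (4.31).

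Within brain, mural-like cells were compared with endothelial-like cells, the neighbouring cells of the vessel wall. The qNSC list stood at 8904 CPM in mural-like and at 643 CPM in endothelial-like cells, and its part in the values was not tested. Igf1r was 6.93-fold (5.47-8.89) lower in mural-like cells (156 against 1082 CPM) and Igfbp3 at least 5.93-fold lower, with 48 UMIs in endothelial-like cells and none in mural-like cells. Igfbp7 was 1.84-fold (1.75-1.95) higher. Igfbpl1 was 1.70-fold (1.17-2.44) higher (109 against 64.2 CPM), with a ratio of 0.954 with doublets removed and 17.2 under the marker gate. Igfbp4 (ratio 0.397, 0.121-1.02) and Igfbp5 (ratio 2.02, 0.753-5.23) passed the fold but their intervals included 1. Igfbp5 was under the fold in 5 alternatives (0.93 to 1.97), below 1 under the marker gate, and with doublets removed the ratio of Igfbp4 was 0.168. Of 6 members tested, 4 passed 2-fold, against 37.2% of all genes.

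In lung, pericyte-like cells were lower than endothelial-like cells in 5 of 6 members tested and higher in none by 2-fold, against 29.8% of all genes past the fold. Igfbp3 was 16.1-fold (10.52-25.5) lower, Igfbp4 6.87-fold (6.51-7.25) lower, Igfbp7 5.17-fold (4.93-5.42) lower, Igf1 2.47-fold (1.57-3.87) lower and Igf1r 2.002-fold (1.81-2.22) lower. These calls depended on the cells and clusters used. Of the Igfbp3 UMIs of endothelial-like cells, 119 of 134 came from the Cd300lg cluster, and without it the ratio of Igfbp3 was 0.492 in place of 0.0621, that of Igf1 was 0.718 in place of 0.404, and 3 members passed. With over 500 genes and under 20% mitochondrial counts, 2 members passed, and the ratios of Igfbp3 and Igf1 were 0.490 and 0.699. At resolution 0.4 Igf1 was higher in pericyte-like cells (ratio 2.23). Igf1r lay at the fold and missed it under 6 alternatives (0.503 to 0.540). Without the Steap4 cluster, the ratios of Igf1 and Igfbp7 were 0.230 and 0.0834, and that of Igfbp5 was 0.271 in place of 1.35. With doublets removed the ratio of Igfbp5 was 2.25, and with all variable genes it was 0.197. Igfbp7 thus stood higher in mural-like than in endothelial-like cells of brain and lower in pericyte-like than in endothelial-like cells of lung, with no test of that contrast.

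Lung myofibroblast-like cells stood above pericyte-like cells in Igf1 and in 3 binding proteins. The myofibroblast-like class carried 7691 CPM over the smooth muscle list, with none of its 7 markers at 0, beside 7648 CPM over its own list, against 2130 CPM of smooth muscle markers in pericyte-like cells, and their part in the values was not tested. Igf1 was 120-fold (90.2-163) higher, Igfbp2 44.5-fold (16.9-166) higher from 110 and 4 UMIs, Igfbp5 17.9-fold (16.2-19.9) higher and Igfbp3 13.8-fold (9.18-21.6) higher. Igf1r (1.86-fold), Igfbp7 (1.41-fold) and Igfbp4 (1.25-fold) were higher by less than 2-fold. Of 7 members tested, 4 passed, against 21.3% of all genes, and the median log2 ratio of the members was 3.79 against -0.01 over all genes. The ratio of Igf1 was 21.7 at resolution 0.4 and 62.3 under the marker gate, which called 172 cells myofibroblast-like in place of 1006 and where those of Igfbp2 and Igfbp3 were 26.7 and 8.77 and those of Igf1r and Igfbp7 were 2.05 and 2.33, past the fold. Without the Steap4 cluster the ratio of Igf1 was 211, the ratio of Igfbp5 was 89.6 and that of Igfbp7 was 3.28, past the fold. The highest ratios over all alternatives were 233 for Igf1, 84.6 for Igfbp2, 25.3 for Igfbp3 and 123 for Igfbp5.

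Matrix fibroblast-like cells were then set against myofibroblast-like cells. Igfbp6 was 13.2-fold (8.43-21.7) higher, Igfbp7 10.46-fold (10.02-10.9) higher and Igfbp4 8.60-fold (8.14-9.08) higher, whereas Igfbp2 was 22.8-fold (8.67-85.3) lower from 4 and 110 UMIs. Igf1 (ratio 0.545, 0.513-0.578) and Igfbp5 (ratio 0.749, 0.714-0.785) differed by less than 2-fold. With over 500 genes and under 20% mitochondrial counts the ratio of Igf1 was 0.390, past the fold, and with doublets removed it was 0.497 and that of Igfbp3 was 2.88 in place of 1.65. Under the marker gate the ratio of Igf1 was 0.942, and those of Igfbp2 and Igfbp7 were 0.167 and 6.72. Igfbp3 was also past the fold with TMM (2.04) and median-of-ratios factors (2.08). Of 8 members tested, 4 passed, against 20.3% of all genes. Among the matrix fibroblast-like clusters, the 28 cells led by Limch1 had 12.4-fold (6.31-28.9) less Igfbp5 than the main cluster led by Serpinf1 and Dpt (41.9 against 521 CPM) and 1.56-fold (1.24-1.94) more Igf1.

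**Figure D4:**
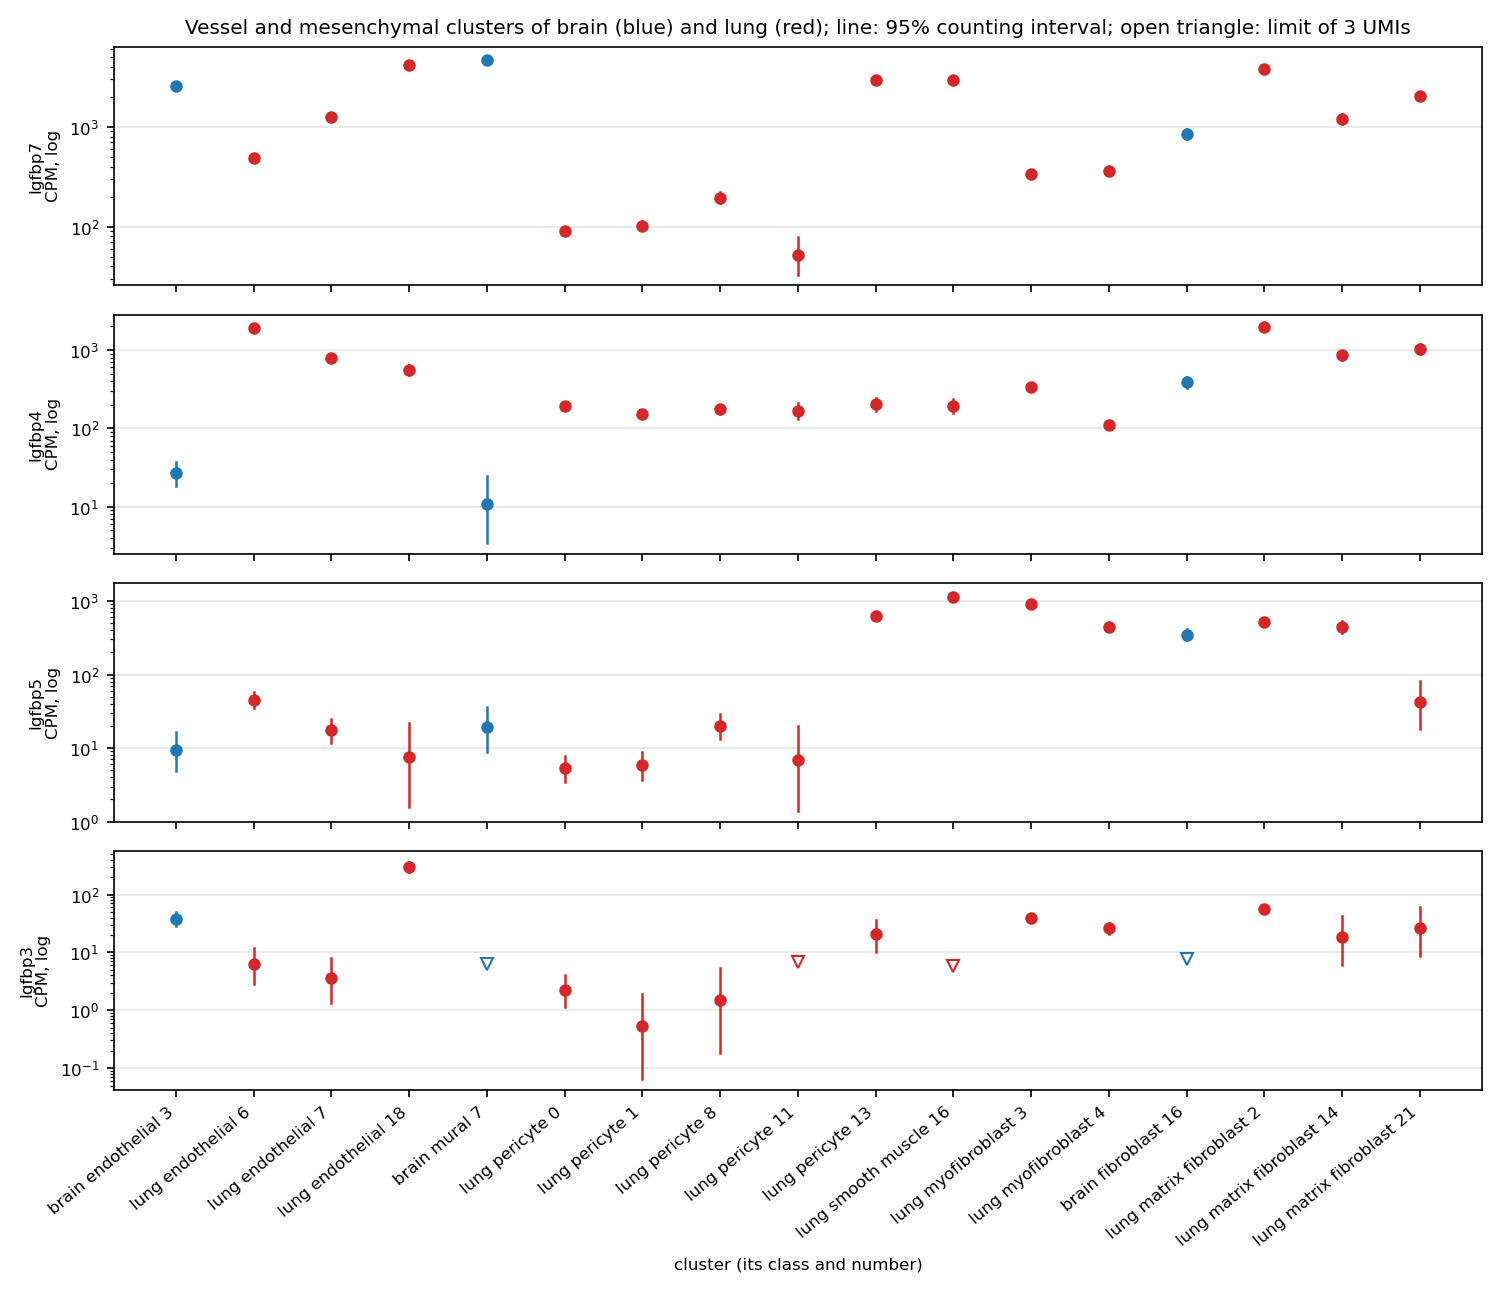
Level in CPM (log axes) of Igfbp7, Igfbp4, Igfbp5 and Igfbp3 in the clusters of vessel and mesenchymal classes of brain (blue) and lung (red), with 95% counting intervals; open triangles mark 0 UMIs at the level of 3 UMIs. Pericyte cluster 13 (led by Rgs5 and Steap4; 2980 CPM of Igfbp7) lies with smooth muscle cluster 16 (2946 CPM) and apart from pericyte clusters 0, 1, 8 and 11 (52.0 to 195 CPM).

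Other genes of the pathway were counted from 7 lists of 53 genes, 51 of which had counts in at least 1 library. Ins1 and Igfbp1 had none. Ratios of these genes are given without intervals. Igf2, the second ligand and an imprinted gene, was highest in brain fibroblast-like (2636 CPM) and mural-like cells (415 CPM). It was 36.5-fold lower in lung matrix fibroblast-like cells (72.3 CPM) than in brain fibroblast-like cells. In brain mural-like cells it was 23.8-fold higher than in endothelial-like cells (17.4 CPM). In lung it was 23.3-fold higher in matrix fibroblast-like than in myofibroblast-like cells (3.10 CPM), where it was 11.9-fold lower than in pericyte-like cells. Igf2r, which clears IGF-2, was at 185 CPM in lung pericyte-like and 175 CPM in brain mural-like cells.

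Pappa2, Ghr and Socs2 had their highest level of all named classes in lung myofibroblast-like cells, and Htra1 had it in brain qNSC-like cells. Pappa2, a pappalysin that cuts IGFBP3 and IGFBP5, was at 134 CPM in lung myofibroblast-like cells. This was 163-fold above pericyte-like cells (0.820 CPM) and 57.9-fold above matrix fibroblast-like cells (2.31 CPM). Htra1, a secreted serine protease, was at 1374 CPM in lung myofibroblast-like cells, 36.4-fold above pericyte-like cells. In brain it was 139-fold lower in aNSC-like (13.6 CPM) than in qNSC-like cells (1886 CPM). Of the list of proteases and their inhibitors, 4 of 6 were tested between myofibroblast-like and pericyte-like cells, with 3 higher and 1 lower by 2-fold, where 21.3% of all genes passed it. Ghr, the growth hormone receptor, was at 470 CPM and its feedback target Socs2 at 565 CPM in myofibroblast-like cells, and of the growth hormone list 3 were higher and 1 lower of 5 tested, against the same 21.3%. Ghr was 43.9-fold lower in aNSC-like (1.40 CPM, the level of 3 UMIs) than in qNSC-like cells (61.5 CPM). Socs2 was 8.14-fold higher in NB-like than in aNSC-like cells. Socs2 was also 12.2-fold higher in lung pericyte-like than in brain mural-like cells, and 10.2-fold lower in brain mural-like than in endothelial-like cells.

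Genes of receptor signalling were counted in the same way. Between lung and brain endothelial-like cells, 0 were higher and 2 lower of 20 tested, against 24.7% of all genes past the fold, with a median log2 ratio of -0.08 against -0.01 over all genes. Grb14, an adaptor that inhibits insulin-type receptors, was 8.99-fold lower in lung endothelial-like cells (17.7 against 159 CPM). It was 24.7-fold lower in brain mural-like (6.42 CPM, the level of 3 UMIs) than in brain endothelial-like cells. In brain mural-like against endothelial-like cells, 7 were higher and 5 lower of 22 tested, against 37.2% of all genes. From aNSC-like to NB-like cells, 0 were higher and 2 lower of 20, against 15.0% of all genes: Foxo1, a transcription factor held in the cytoplasm by insulin-type signals (3.10-fold lower), and Grb10, another inhibiting adaptor (2.52-fold lower). Pik3cb, a catalytic subunit of PI3-kinase, was 46.9-fold lower in lung pericyte-like (0.456 CPM) than in endothelial-like cells (21.4 CPM). It was 25.2-fold lower in lung matrix fibroblast-like (0.710 CPM) than in brain fibroblast-like cells (17.9 CPM). In these fibroblast classes 3 UMIs are 0.533 and 7.67 CPM, so this last ratio rests on few UMIs. Irs2, a receptor substrate, was 15.05-fold higher in lung pericyte-like than in endothelial-like cells (17.1 against 1.14 CPM). In the endothelial-like cells 3 UMIs are 0.854 CPM.

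Other genes with an IGFBP-type domain were counted last. All 4 tested between lung pericyte-like and brain mural-like cells were higher in lung, against 33.7% of all genes past the fold: Wisp1 (at least 103-fold, 659 CPM against no UMI), Ctgf (33.1-fold) and Cyr61 (26.3-fold), matricellular proteins, were the largest. Ctgf and Cyr61 were at 4.28 CPM in mural-like cells, under the 6.42 CPM of 3 UMIs, so their ratios rest on very few UMIs. Between the endothelial-like classes 3 of 6 were higher in lung and none lower, against 24.7% of all genes, among them Esm1, a proteoglycan of activated endothelium (19.2-fold, 107 against 5.55 CPM), and Wisp1 (5.24-fold). The pappalysin inhibitor Stc1 was 21.6-fold higher in lung endothelial-like cells (85.7 against 3.96 CPM) and 3.53-fold higher in NB-like than in aNSC-like cells. In fibroblast-like classes 2 of 6 were higher and 3 lower in lung, against 36.1% of all genes, with Cyr61 39.8-fold and Wisp1 23.8-fold higher and Crim1 3.10-fold, Ctgf 2.89-fold and Nov 2.22-fold lower, and the median log2 ratio was -0.20 against -0.15 over all genes. In brain fibroblast-like cells Wisp1 was at 5.11 CPM, under the 7.67 CPM of 3 UMIs. Between aNSC-like and qNSC-like cells all 3 tested were lower, against 48.7% of all genes, with Cyr61 32.2-fold lower and Esm1 at least 16.7-fold lower. Cyr61 was 11.7-fold lower in brain mural-like than in endothelial-like cells. In lung, Wisp1 was 31.7-fold higher and Esm1 195-fold lower in pericyte-like than in endothelial-like cells, Kazald1 was 20.7-fold higher in myofibroblast-like than in pericyte-like cells, and Nov was 7.81-fold and Grb14 13.05-fold higher in matrix fibroblast-like than in myofibroblast-like cells.

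The genes with the most similar pattern were ranked by Pearson's r of log2(CPM + 10) over the 19 named classes among 9556 genes, a description in which classes share libraries and depth. Igfbpl1 was closest to Tubb3 (r = 0.99), Srrm4 (0.98) and Islr2 (0.98), and Tubb3 is one of the markers that named NB-like cells. Igfbp7 was closest to Rhoj (0.94), Hspg2 (0.92) and Gpr124 (0.89). Igfbp6 was closest to Tcea3 (0.89), Rbp4 (0.85) and Clec3b (0.84), Igfbp2 to Gjb6 (0.88), Slc7a11 (0.86) and F3 (0.85), and Igfbp4 to Cope (0.88), Txndc5 (0.85) and Fbn1 (0.84). Igf1 was closest to Mdfic (0.88), Lsp1 (0.86) and Lpl (0.85). Weaker best matches were found for Igfbp3 with Ap2a2 (0.79), Plk2 (0.78) and Grasp (0.78), for Igfbp5 with Fzd2 (0.77), Gas1 (0.75) and Scara3 (0.73), and for Igf1r with Ctnnb1 (0.75), Zmym5 (0.72) and Rgs12 (0.72). Among the members themselves, r was 0.71 for Igf1 and Igfbp4 and -0.60 for Igfbp4 and Igfbpl1, the highest and the lowest of the 36 pairs.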

How the data were processed

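Nes-GFP+ cells of brain and lung gave 1 library each. Per the labels, the authors used UMI-tools 1.0.0, STAR 2.7.1a and featureCounts 1.6.4 with mm10; the paper also names the Chromium 3' v3 kit. The annotation version, the strand setting and the choice of barcodes are not given in the sources used here. The deposited values are UMI counts per gene and barcode, not normalized by the authors. Barcodes with over 200 and under 4000 genes and under 40% mitochondrial counts were kept. Scrublet (scanpy 1.11.5) called 44 brain and 74 lung doublets, which were kept in the reported values. Each library was clustered with Seurat 5.3.0 (R 4.3.3; 20 components, resolution 0.8, 2000 variable genes less cell cycle and IGF genes).

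Clusters were named from markers where the score was at least 1 and led by 0.5, with 3 markers found in at least 20% of cells; a cluster with a median depth under its library's median divided by 3 and none of the markers on top was left without a name. These thresholds were set after seeing the data, and the lead was waived for the aNSC-like cluster, which has 3 own markers among its top 10 genes. A cluster that the neuron list named was renamed Eomes-led where Eomes was among its top 10 genes. Counts were summed per class and scaled to CPM. Ratios carry exact conditional binomial 95% intervals; 0 UMIs are set to a floor of 3, and a gene passes at 2-fold or more among genes with at least 10 CPM in 1 class. Shares of cells after thinning used 1 seeded draw of 1000 UMIs per cell and left out 187 brain and 121 lung cells below that depth. The ratio code was tested on simulated counts. The members and gene lists were chosen with earlier results of these data known. The genes named were all members, the 4 list genes past the fold with the largest change in each comparison, and the 3 genes most alike to each member; clusters and a few levels of other pathway genes were chosen after their values were seen. Coordinates come from GENCODE M21 and start regions from RefSeq, which held 8 of the 9 members, both on GRCm38. Alternatives were other cell filters, doublet removal, a marker gate on each cell, other resolutions, TMM (edgeR 4.0.16) and median-of-ratios (DESeq2 1.42.0) factors, other thresholds and subsets of clusters.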

Additional observations from a re-analysis of the deposited data

Results flagged for a closer look

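Igfbp7 was flagged because its direction between perivascular and endothelial-like cells was opposite in the tissues. The ratio of brain mural-like to endothelial-like cells was 1.84 (4724 against 2562 CPM) and the ratio of lung pericyte-like to endothelial-like cells was 0.194 (247 against 1275 CPM). With 1 library for each tissue this contrast could not be tested. The Steap4 cluster of the lung pericyte-like class, with 113 cells and 2980 CPM of Igfbp7, was above the lung endothelial-like level, and without it the lung ratio was 0.0834.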

How the results depend on the processing

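No paired analysis was possible because each tissue gave 1 library, the labels give no replicate number and no result comes from a test. The 36 ratios past 2-fold had 390 values under alternatives, of which 301 stayed within the counting interval, 85 left it with the same direction and 4 changed direction. These 4 were Igfbp5 in brain mural-like over endothelial-like cells with a marker gate on each cell (0.93), Igf1 in lung pericyte-like over endothelial-like cells at resolution 0.4 (2.23), and, against the Cxcl14 cluster alone, Igfbp4 (2.22) and Igfbp7 (1.04) in aNSC-like over qNSC-like cells; in the last case the level of the class comes from another cluster, and otherwise the cause was not tested. The number of members past 2-fold in NB-like over aNSC-like cells was 1 as reported, 3 with all deposited barcodes, 2 with the marker gate, 3 at resolution 1.2, and 0 with TMM factors, with median-of-ratios factors and without the cycling clusters. No cluster was named aNSC-like at resolution 0.4 or with all variable genes, so comparisons with that class have no value there. For lung pericyte-like over endothelial-like cells the 5 members became 2 with over 500 genes and under 20% mitochondrial counts, 3 with the marker gate and 3 without the Cd300lg cluster. For lung pericyte-like over brain mural-like cells 3 became 5 at resolution 0.4, and for brain mural-like over endothelial-like cells 4 became 2 when the interval had to exclude 1. The class with the highest level was unchanged for 5 of 9 members under the marker gate, which has no Eomes-led class and so had to change that of Igfbpl1, 6 with TMM factors, 7 with median-of-ratios factors and with all deposited barcodes, 8 with doublets removed and at resolution 0.4, and all 9 with the other filter on cells, at resolution 1.2, with all variable genes and with the mean of the cells' own CPM. The marker gate left 471 brain and 1722 lung cells without a name. TMM factors moved the log2 ratio of all genes by 0.33 in matrix fibroblast-like over brain fibroblast-like, 0.31 in matrix fibroblast-like over myofibroblast-like, 0.23 in pericyte-like over mural-like, 0.22 in NB-like over aNSC-like, -0.14 in mural-like over endothelial-like and -0.38 in aNSC-like over qNSC-like cells. Cluster subsets were chosen after seeing the data. Depth limits levels in the 33 neural-like and 34 microglia-like cells, where 3 UMIs are 17.0 and 18.1 CPM.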
